A study of Homo sapiens with 6 samples.

Results

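The transcripts described here are those of 10 genes of the insulin-like growth factor (IGF) system, the 7 IGF-binding proteins IGFBP1 to IGFBP7 and the receptors IGF1R, IGF2R and INSR, picked by gene symbol from 24551 symbols. All 10 symbols were found. They were measured by RNA-Seq in DU145, a line from a brain metastasis of prostate carcinoma, and in 769-P, a line from a renal cell adenocarcinoma, after knockdown of SPOP, the substrate-binding subunit of a CUL3 ubiquitin ligase. Each line had 1 library from cells with a control siRNA (NC), 1 with SPOP siRNA 1 and 1 with SPOP siRNA 2, so there were 6 libraries and no repeated control. Unless a sentence names a siRNA, a mean ± SD is over the 2 siRNA libraries of a line, which are different siRNAs and not repeats of 1 treatment. The time between transfection and RNA collection is not given in the sources used here for these libraries. DU145 was grown in DMEM and 769-P in an RPMI medium, both with fetal bovine serum, so line and medium cannot be told apart.

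IGF-binding proteins are secreted carriers that hold IGF1 and IGF2 and control how much of either ligand reaches the cell surface. IGF1R and the insulin receptor INSR are tyrosine kinases that signal through the IRS adaptors to PI3K and AKT. IGF2R, the cation-independent mannose 6-phosphate receptor, has no kinase, clears IGF2 and sorts lysosomal enzymes. In prostate and kidney tumours the binding proteins are known as modulators of growth signals from the blood and the stroma.

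Levels are FPKM, fragments scaled for transcript length and library size, and changes are differences in log2(FPKM + 1) of a siRNA library over the NC library of its line. A gene was counted as past the threshold when it differed at least 1.5-fold on that scale, 0.58 in log2, in the same direction with both siRNAs. Only genes that averaged 1 FPKM or more across the 6 libraries were counted, 11865 in all. Of the 10 members 7 reached that mean. IGFBP1, IGFBP5 and INSR did not and are given as values. The members were chosen with these levels and changes known, so what follows on them is a description without a test.

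SPOP itself had 16.1 FPKM in the DU145 control and 11.6 FPKM in the 769-P control. The siRNAs left 17.2% and 18.4% of it in DU145 and 13.2% and 12.04% in 769-P. The keratins KRT8 and KRT18 had at least 171 FPKM in every library, and the renal transcription factor PAX8 had 106 to 125 FPKM in 769-P against at most 1.47 FPKM in DU145. The epithelial genes CDH1 and EPCAM had at most 0.0977 and 4.92 FPKM in 769-P, and at least 8.87 and 27.6 FPKM in DU145. The mesenchymal genes VIM and CDH2 had at least 2499 and 78.1 FPKM in 769-P, and at most 635 and 0.564 FPKM in DU145. The renal genes PAX2 and CDH6 had at most 0.160 and 0.152 FPKM in DU145, but LHX1 had 9.80 to 17.5 FPKM there and 35.8 to 58.3 FPKM in 769-P. In DU145 the prostate genes KLK3 and HOXB13 had at most 0.312 FPKM, so these markers of the labelled tissue were absent or nearly so. Markers of blood and vessel cells (PTPRC, PECAM1, CDH5) had at most 0.184 FPKM in any library. The files hold no counts, and the depth estimated from low values ranged from 0.678 to 1.41 times that of the 769-P control. The DU145 control and the 769-P siRNA 2 library had a value above 0 at 287 and 237 of 366 olfactory receptor genes, with means of 0.345 and 0.227 FPKM, against 3 to 5 genes in the others. Values of that size in these libraries are therefore not read as expression of a member. The median change over all genes counted was 0.07 and 0.12 (log2) with siRNAs 1 and 2 in DU145, and 0.00 and -0.06 in 769-P.

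The 2 lines carried different sets of binding proteins. In DU145 the summed FPKM of the 7 genes was mostly IGFBP6, IGFBP4 and IGFBP2, which made up 40.5%, 35.8% and 18.6% of it in the control. In 769-P it was mostly IGFBP7, with 90.4% in the control, and IGFBP6, with 8.47%. With SPOP siRNAs the share of IGFBP4 in DU145 was 50.8% and 51.5%, that of IGFBP2 was 6.91% and 11.3%, and that of IGFBP3 was 3.42% and 9.99% against 1.26% in the control. In 769-P the share of IGFBP7 was 87.1% and 93.2% with the siRNAs, on either side of the control.

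**Figure D1:**
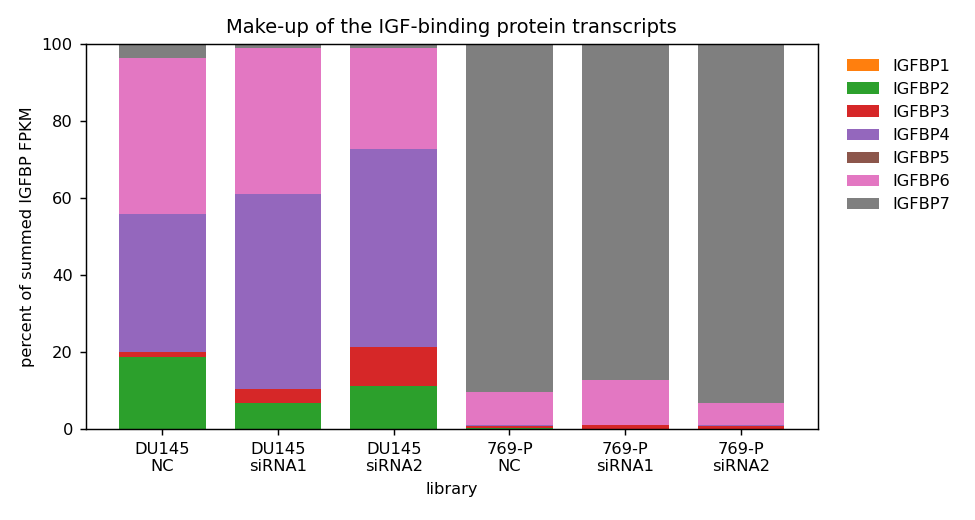
Stacked bars give the percent of the summed FPKM of IGFBP1 to IGFBP7 that each gene contributed in each of the 6 libraries. IGFBP7 filled 87.1% to 93.2% of the 769-P bars and at most 3.74% of the DU145 bars, where IGFBP4 and IGFBP6 were the main parts.

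By mean FPKM over the 3 libraries of a line, the order in DU145 was IGFBP4, IGFBP6, IGF2R, IGFBP2, IGFBP3, IGF1R, IGFBP7, INSR, IGFBP1 and IGFBP5. In 769-P it was IGFBP7, IGFBP6, IGF2R, IGF1R, IGFBP3, INSR, IGFBP4, IGFBP2, IGFBP1 and IGFBP5. Neighbours with ranges that did not overlap over the 3 libraries were IGFBP6 and IGF2R, IGF1R and IGFBP7, and INSR and IGFBP1 in DU145. In 769-P they were IGFBP7 and IGFBP6, and IGF2R and IGF1R. All the other neighbours overlapped, so their order was within the spread of the libraries. Between the lines the ranges of IGFBP2, IGFBP4 and IGFBP7 did not overlap, and those of the other 7 members did. The share of all genes with ranges apart is not given here, so nothing is read from this count. Many genes differed between the lines, and 42.1% of all genes counted passed limma for the level, as described below. In the controls IGFBP4 was 61.5-fold and IGFBP2 22.9-fold higher in DU145, and IGFBP7 was 49.2-fold higher in 769-P. In bulk RNA fewer cells that express a gene and less of its RNA per cell cannot be told apart.

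**Figure D2:**
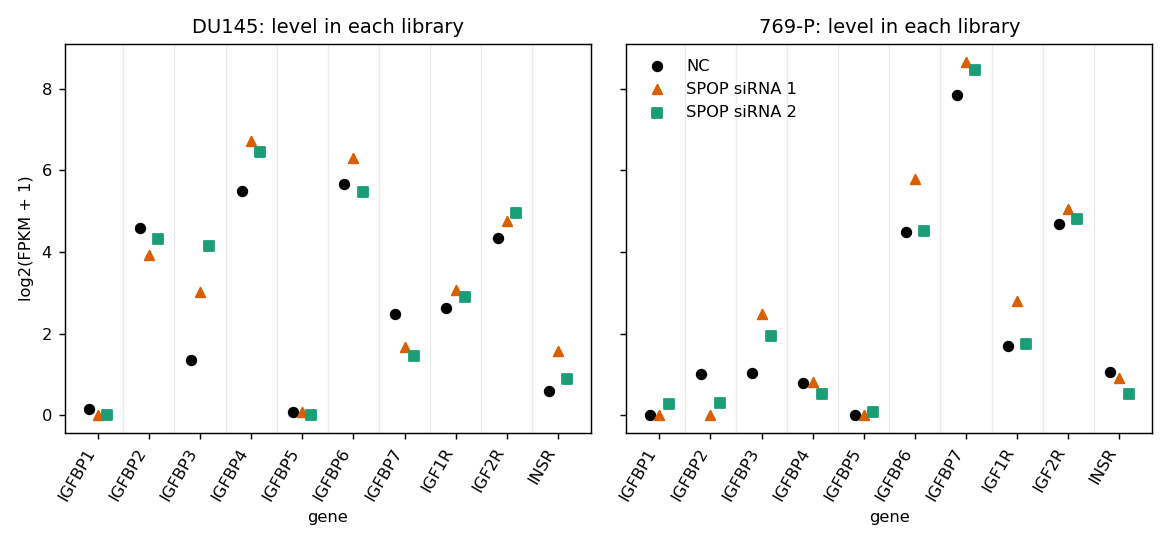
Each point is 1 library, with log2(FPKM + 1) on the vertical axis, the 10 genes on the horizontal axis and DU145 on the left, 769-P on the right (circle NC, triangle SPOP siRNA 1, square SPOP siRNA 2). IGFBP3 lay higher with both siRNAs than in the control of each line, from 1.56 FPKM to 7.04 and 16.6 FPKM in DU145 and from 1.04 to 4.57 and 2.83 FPKM in 769-P.

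In DU145 3 of the 7 members counted were past the threshold, IGFBP3 and IGFBP4 upward and IGFBP7 downward. In 769-P 3 of 7 were past it as well, IGFBP3 and IGFBP7 upward and IGFBP2 downward. IGFBP2 and IGFBP4 averaged 0.414 and 0.642 FPKM in 769-P. They were counted there only because their DU145 levels raised the mean over the 6 libraries. Over all genes counted, 4.72% were past it upward and 1.19% downward in DU145, 5.91% together, and in 769-P 3.60% and 3.73%, 7.32% together. Nothing is read from the members' counts against these, since the same changes were known when they were chosen. The member closest inside the threshold was IGFBP7 in both lines, with a smaller change of 0.82 (log2) in DU145 and 0.62 in 769-P, and the closest outside was IGF2R, with 0.42 and 0.12. Of the 3 members not counted, 0 were past the threshold in either line, whereas with a pseudocount of 0.1 INSR was past it upward and IGFBP1 downward in DU145. The IGFBP1 call rests on 0.121 FPKM in the DU145 control, under the mean of 0.345 FPKM of the olfactory receptor genes there, and is not read as a change.

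**Figure D3:**
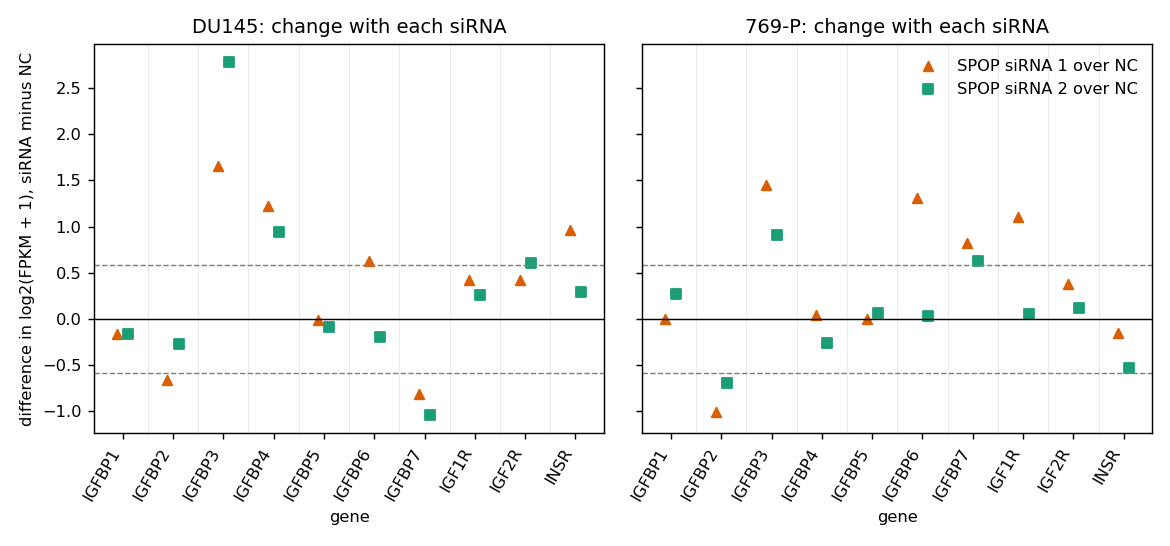
Each point is the difference in log2(FPKM + 1) between 1 SPOP siRNA library and the NC library of that line, for the 10 genes in DU145 (left) and 769-P (right), and dashed lines mark 1.5-fold. Both siRNA points of IGFBP3 were above the upper line in both panels, and those of IGFBP7 were below the lower line in DU145 and above the upper line in 769-P.

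IGFBP3, the main carrier of IGFs in serum, is on chromosome 7 of GRCh37 from 45951844 to 45961473 on the minus strand. It had 1.56 FPKM in the DU145 control, 7.04 FPKM with siRNA 1 and 16.6 FPKM with siRNA 2. The 769-P control had 1.04 FPKM of it, against 4.57 FPKM with siRNA 1 and 2.83 FPKM with siRNA 2. Every siRNA library was above both controls, and the siRNA with the higher value differed between the lines. The FPKM ratio to the control was 4.52 and 10.7 in DU145 and 4.37 and 2.71 in 769-P. The mean change was 2.22 ± 0.80 (SD, n = 2) in DU145 and 1.18 ± 0.38 (SD, n = 2) in 769-P, on the log2(FPKM + 1) scale, which understates the change of a gene this low in the controls. With the mean olfactory receptor value subtracted from each library, the changes were 2.43 and 1.14.

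IGFBP4, a secreted binding protein that PAPPA can cleave, is on chromosome 17 of GRCh37 from 38599702 to 38613977 on the plus strand. The DU145 libraries had 44.3 FPKM of it in the control, 105 FPKM with siRNA 1 and 85.7 FPKM with siRNA 2, both above the control and closer to each other than to it. Its mean change in DU145 was 1.08 ± 0.20 (SD, n = 2). Its 769-P values were 0.720 FPKM in the control, 0.771 FPKM with siRNA 1 and 0.436 FPKM with siRNA 2, on either side of the control and under 1 FPKM throughout.

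The bases before the start sites of IGFBP3 and IGFBP4 are shown because these 2 members were past the threshold upward in DU145. The RefSeq table used held 8 of the 10 members, without IGFBP1 and IGFBP7, and its build is GRCh38.p14, so these positions differ from those given for GRCh37. Each sequence is the 250 bases before the start site, 5′ to 3′ on the strand of the gene, chr7:45921273-45921522 (minus strand) for IGFBP3 and chr17:40443200-40443449 (plus strand) for IGFBP4. Capitals mark TATAAA or TATATA and the GC box GGGCGG, each searched on both strands, where TATAAA and TATATA can overlap.
IGFBP3: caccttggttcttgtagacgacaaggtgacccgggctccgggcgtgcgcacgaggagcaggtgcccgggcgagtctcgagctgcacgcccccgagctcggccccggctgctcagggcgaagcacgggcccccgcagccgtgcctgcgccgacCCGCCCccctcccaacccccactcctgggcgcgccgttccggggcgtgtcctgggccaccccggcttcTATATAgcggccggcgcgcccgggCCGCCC
IGFBP4: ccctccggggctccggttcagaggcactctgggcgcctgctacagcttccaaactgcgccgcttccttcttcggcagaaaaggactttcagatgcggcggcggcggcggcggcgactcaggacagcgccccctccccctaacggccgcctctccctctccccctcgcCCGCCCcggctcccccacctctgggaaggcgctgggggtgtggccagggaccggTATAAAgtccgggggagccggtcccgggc
IGFBP3 held TATATA with its first base at -30 and IGFBP4 held TATAAA at -29, relative to the start site. Neither motif was in the windows of the other 6 members in the table. Over the 35116 windows of that length in the table, 10.7% held TATAAA, 3.73% held TATATA and 42.6% held GGGCGG. IGF2R held CACGTG, the E-box letters, at 3 positions, and 6.34% of all windows held it at least once. These are matches of letters, not binding sites.

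IGFBP7, a secreted protein of the vessel wall and stroma that binds IGFs weakly, is on chromosome 4 of GRCh37 from 57896939 to 57976551 on the minus strand. Its DU145 values were 4.62 FPKM in the control, 2.20 FPKM with siRNA 1 and 1.73 FPKM with siRNA 2. The 769-P libraries held far more of it, 227 FPKM in the control, 403 FPKM with siRNA 1 and 351 FPKM with siRNA 2. Both siRNA libraries were thus below the control in DU145 and above it in 769-P, and the FPKM ratio was 0.475 and 0.374 in the former and 1.77 and 1.54 in the latter. The mean change was -0.93 ± 0.16 (SD, n = 2) in DU145 and 0.72 ± 0.14 (SD, n = 2) in 769-P. The antisense gene IGFBP7-AS1 overlaps its start in the annotation. It was listed at 0 in all DU145 libraries and had 0.346, 0.810 and 1.10 FPKM in 769-P, and the counting is not stated to use strand.

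IGFBP2, which is often raised in the serum of patients with prostate cancer, is on chromosome 2 of GRCh37 from 217497551 to 217529159 on the plus strand. It had 23.0 FPKM in the DU145 control, 14.2 FPKM with siRNA 1 and 18.9 FPKM with siRNA 2, both below the control. Its mean change in DU145 was -0.47 ± 0.27 (SD, n = 2), with only siRNA 1 past 1.5-fold. In 769-P the control had 1.01 FPKM, and the gene was listed at 0 with siRNA 1 and had 0.237 FPKM with siRNA 2, which is close to the 0.227 FPKM of the olfactory receptor genes in that library. The change of -0.85 ± 0.22 (SD, n = 2) in 769-P thus rests on a control value of about 1 FPKM.

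IGFBP6, which prefers IGF2 over IGF1, was second by mean level in both lines. It is on chromosome 12 of GRCh37 from 53491220 to 53496129 on the plus strand. It had 50.1 FPKM in the DU145 control, 77.7 FPKM with siRNA 1 and 43.5 FPKM with siRNA 2. The 769-P control had 21.3 FPKM, with 54.2 FPKM with siRNA 1 and 21.9 FPKM with siRNA 2. Only siRNA 1 gave a higher value by more than 1.5-fold in either line, and the mean changes of 0.21 ± 0.58 in DU145 and 0.67 ± 0.90 in 769-P (SD, n = 2) were smaller than the spread between the siRNAs.

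IGFBP1, a binding protein of the liver that insulin represses, and IGFBP5, known from bone and muscle, were close to 0 in both lines. IGFBP1 had 0.121 FPKM in the DU145 control and 0.202 FPKM in the 769-P siRNA 2 library, the libraries that had olfactory receptor values, and 0 in the others. IGFBP5 had 0.0602 FPKM in the DU145 control, 0.0511 FPKM with siRNA 1 in DU145 and 0.0499 FPKM with siRNA 2 in 769-P, and was listed at 0 in the other libraries. Multiplied by the relative depth of the library, the values of IGFBP5 stood at 2.02, 1 and 2.01 times the lowest of them, and the 2 values of IGFBP1 at 1 and 1.99, close to whole multiples of a single step. IGFBP1 lies 18584 bp from IGFBP3 on chromosome 7 and IGFBP5 lies 7668 bp from IGFBP2 on chromosome 2, each pair tail to tail. In both pairs a gene near 0 thus lay beside a gene with at least 14.2 FPKM (IGFBP2) or 1.56 FPKM (IGFBP3) in DU145.

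Of the receptors, IGF1R, the main signalling receptor for both IGFs, is on chromosome 15 of GRCh37 from 99191768 to 99507759. It had 5.19 FPKM in the DU145 control, 7.32 FPKM with siRNA 1 and 6.42 FPKM with siRNA 2. The 769-P values were 2.24 FPKM in the control, 5.93 FPKM with siRNA 1 and 2.36 FPKM with siRNA 2. All siRNA values were above their control, but the change was 0.34 ± 0.12 (SD, n = 2) in DU145, under the threshold with both siRNAs, and 0.58 ± 0.74 (SD, n = 2) in 769-P, where it came from siRNA 1 alone.

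IGF2R, on chromosome 6 from 160390114 to 160534539, was the receptor with the highest level in both lines, and its control levels were 1.28-fold apart. It had 19.3 FPKM in the DU145 control, 26.1 FPKM with siRNA 1 and 29.8 FPKM with siRNA 2. The 769-P control had 24.6 FPKM, with 32.3 FPKM with siRNA 1 and 26.8 FPKM with siRNA 2. Each siRNA value was above its control, by 0.51 ± 0.13 (SD, n = 2) in DU145 and 0.25 ± 0.18 (SD, n = 2) in 769-P on the log2 scale, and only siRNA 2 in DU145 was past 1.5-fold. Its antisense gene AIRN was listed at 0 in all 6 libraries.

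INSR, the insulin receptor, on chromosome 19 from 7112266 to 7294425, was low. It had 0.517 FPKM in the DU145 control, 1.96 FPKM with siRNA 1 and 0.855 FPKM with siRNA 2. For 769-P the values were 1.09 FPKM in the control, 0.882 FPKM with siRNA 1 and 0.443 FPKM with siRNA 2. The siRNA libraries were above the control in DU145 and below it in 769-P. The DU145 control and the 769-P siRNA 2 library, the lowest of their lines, also had values at olfactory receptor genes. The mean of those genes was 0.345 and 0.227 FPKM in these 2 libraries. Subtracting it lowers them most, so it can only widen these differences, and the direction was fixed in advance. With it subtracted, the changes of INSR were 1.34 and 0.66 (log2) in DU145, past the threshold with both siRNAs, and -0.15 and -0.78 in 769-P. Nothing is read from this.

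By the 4 changes (2 siRNAs in each line), the genes nearest to IGFBP3, the member with the largest mean change in both lines, were CD24, GANAB and HABP4, at Euclidean distances of 1.03, 1.36 and 1.45 in log2 units. CD24, a small surface glycoprotein, had changes of 1.05 and 2.10 in DU145 and 1.64 and 0.46 in 769-P with siRNAs 1 and 2, and its reads may be shared with near-identical pseudogenes. GANAB is a subunit of a glucosidase of the endoplasmic reticulum and had changes of 1.25, 1.51, 1.24 and 1.05 in the same order. HABP4, which binds hyaluronan and RNA, had 1.48, 1.55, 1.89 and 1.49. All were compared over the same control libraries as IGFBP3.

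The rest of the pathway was examined with a list of 60 further genes, of ligands, proteases, proteins with an IGFBP domain, adaptors, the PI3K and AKT cascade, its inhibitors and FOXO factors. IGF2 and INS share 1 row of the files with their read-through gene, so the list had 59 rows, of which 47 reached a mean of 1 FPKM. Of the ligands, IGF1 was listed at 0 in all 6 libraries. The row of IGF2 and INS had 0.461 FPKM in the DU145 control, 0.434 and 0.315 FPKM with the siRNAs, and was listed at 0 in 769-P. The protease genes PAPPA and PAPPA2, named after their values were seen, had at most 0.0562 and 0.696 FPKM. The lines thus had transcripts of binding proteins and receptors with little or no transcript of the ligands.

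The list was chosen with earlier results of these data known, so its shares against all genes, here and below, are a description. In DU145 6 of the 47 genes were past the threshold upward and 0 downward, 12.8% against 4.72% of all genes upward. They were the adaptors IRS2 and GRB10, PIK3R2, a regulatory subunit of PI3K, TRIB3, a pseudokinase known to bind AKT, and KAZALD1 and WISP2, secreted proteins with an IGFBP domain. TRIB3 had 60.7 FPKM in the control and 111 and 107 FPKM with the siRNAs. PIK3R2 had 19.3 FPKM in the control and 44.6 and 32.9 FPKM with the siRNAs. With fold changes centred on the median of all genes 3 were past it upward, against 2.87% of all genes, and with quantile normalization 2, against 3.33%. With siRNA 1 alone 15 were past it upward and 1 downward, against 1428 and 880 of the 11865 genes. With siRNA 2 alone 9 of the 47 were past it upward and 0 downward, against 11.3% and 3.73% of all genes.

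In 769-P 3 of 47 were past it upward and 0 downward, 6.38% against 3.60% of all genes upward. They were IRS1, LRP1, an endocytic receptor that can bind IGFBP3, and FOXO4. IRS1, the adaptor next to the receptors, had 7.55 and 4.83 FPKM with the siRNAs in 769-P against 2.65 FPKM in the control. In DU145 it had 24.3 and 14.3 FPKM against 10.8 FPKM, and siRNA 2 was not past the threshold. IRS2 had 7.20 to 10.8 FPKM over the 769-P libraries, and 17.6 and 13.9 FPKM with the siRNAs in DU145 against 8.83 FPKM. LRP1 had 3.28 and 2.62 FPKM with the siRNAs in 769-P against 1.18 FPKM. FOXO4 was just inside the threshold, with changes of 0.99 and 0.59. With a pseudocount of 0.1, 4 were past it upward and 1 downward, against 6.15% and 6.40% of all genes. The numbers were 9 and 1 with siRNA 1 alone, against 10.3% and 9.84% of all genes, and 5 and 1 with siRNA 2 alone, against 6.15% and 8.37%.

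**Figure D4:**
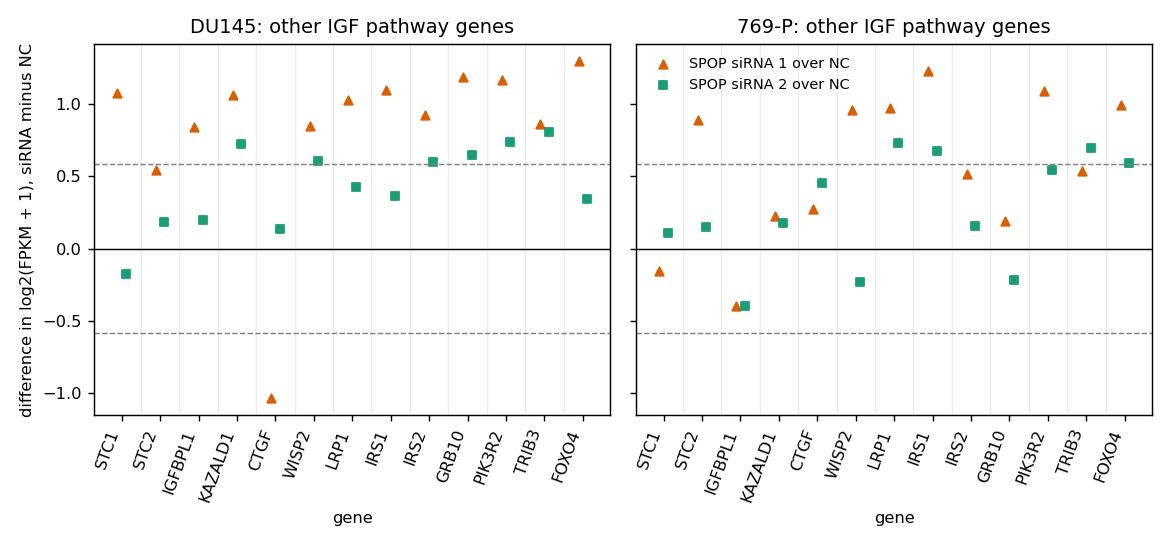
Each point is the difference in log2(FPKM + 1) between 1 SPOP siRNA library and the NC library of that line for 13 pathway genes chosen by a fixed rule, in DU145 (left) and 769-P (right), with dashed lines at 1.5-fold. TRIB3 lay at 0.86 and 0.80 in DU145 and at 0.53 and 0.69 in 769-P, and IRS1 lay at 1.10 and 0.37 and at 1.23 and 0.68, in each pair siRNA 1 first.

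Taking only the side of 0, 32 of the 47 genes were above their control with both siRNAs in DU145 and 3 below, 68.1% above against 43.5% of all genes counted. After centring on the median of all genes 29 were above, 61.7% against 32.9%. In 769-P 21 were above and 10 below, 44.7% above against 31.5% of all genes. The median change of the list was 0.34 and 0.22 (log2) with siRNAs 1 and 2 in DU145, against 0.07 and 0.12 over all genes, and 0.25 and 0.01 in 769-P, against 0.00 and -0.06. Both siRNAs of a line share 1 control library, which by itself puts their changes on the same side. The list was also chosen with earlier results known, so nothing is read from these shares about the pathway.

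limma was fitted over all 6 libraries with Benjamini-Hochberg adjustment over all genes counted, at a threshold of 0.05. The knockdown effect passed it for 0 of the 47 genes in each line, and so did its difference between DU145 and 769-P. Of all genes, 0.135% passed for DU145, 0.101% for 769-P and 0.169% for the difference. At an unadjusted p under 0.05 the numbers were 5, 3 and 0 of the 47 genes, against 6.27%, 6.97% and 2.74% of all genes. TRIB3 had the smallest adjusted p of the list in both lines (0.719 and 0.693, limma), with changes of 0.83 (standard error 0.20) and 0.61 (standard error 0.20) and both siRNA libraries above the control in each line.

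Between the lines, 22 of the 47 genes passed the same threshold (limma) for the level, 15 higher in DU145 and 7 higher in 769-P. Of all genes 42.1% passed, so the list was near the background. The largest differences were of STC2 and STC1, stanniocalcins that inhibit PAPPA, of IGFBPL1 and WISP2, which carry an IGFBP domain, and of CTGF, a matrix protein of the same family as WISP2. STC1, IGFBPL1, WISP2 and CTGF averaged 0.106, 0.105, 0.484 and 0.893 FPKM in 769-P. They reached the filter only through DU145, and a filter on the mean of both lines by itself favours such differences. STC2 had 33.7, 49.5 and 38.4 FPKM in DU145 and 1.61, 3.83 and 1.90 FPKM in 769-P, in the order NC, siRNA 1 and siRNA 2, a difference of 3.65 (log2, standard error 0.27, adjusted p = 0.000562 from limma). STC1 had 6.27 to 16.3 FPKM in DU145 and at most 0.204 FPKM in 769-P. IGFBPL1 had 6.01 to 11.6 FPKM in DU145 and was listed at 0 with both siRNAs in 769-P, where the control had 0.315 FPKM. IRS1 was also higher in DU145, by 1.59 (log2, standard error 0.29, adjusted p = 0.00952 from limma). Without siRNA 1 or siRNA 2 of 769-P the count was 13 and 12, and the share of all genes was 23.3% and 23.6%.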

How the data were processed

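RNA-Seq libraries were made by the authors from polyadenylated RNA, 1 per file. Per the labels and the paper's methods, reads were checked with FastQC, trimmed with cutadapt and mapped to hg19 with TopHat2. The deposited values are FPKM per gene symbol, 1 column per library, and the methods name Cufflinks. The annotation and tool versions are not given in the sources used here. The labels name another library kit than the methods, which speak of 2 biological replicates, while 1 library per siRNA is labelled.

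Rows of a symbol were summed and log2(FPKM + 1) was taken. limma 3.58.1 (R 4.3.3) was fitted with 4 groups over all 6 libraries, with eBayes and a trend. Its residual spread is that between siRNA 1 and siRNA 2, assumed to hold for the controls too. No source says whether the libraries came from separate cultures, so p-values cover only that spread. The code was tested on simulated data. Tables were handled with pandas 2.3.3 in Python 3.11.15. GRCh37 positions are from GENCODE, lifted from a later build.

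The members and the lists were chosen with earlier results of these data known. Pathway genes were named when they were past 1.5-fold in a line, passed limma for knockdown or were among the 5 with the largest difference between the lines. The ligands, IRS1 and IRS2 were named in any case, and the 3 genes nearest to the member with the largest change. Alternatives were a pseudocount of 0.1, other filters on mean FPKM, median centring, quantile normalization, subtraction of the mean olfactory receptor value, no trend, a replicate block and leaving out each siRNA library. Some prostate markers are not reported here.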

Additional observations from a re-analysis of the deposited data

Results flagged for a closer look

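For some genes both siRNA libraries of DU145 lay on one side of their control and both of 769-P on the other. This held for 2 of the 10 members, IGFBP7, which was counted, and INSR, which was not. It also held for 4 of the 47 pathway genes counted and 1 of the 12 not counted. The share of all genes counted was 13.8%, which is no background for genes that were not counted. With IGFBP7 alone among the 7 members counted, and 8.51% of the pathway genes counted, nothing is read from these counts. The values are given for the members, for the one such gene among the pathway genes named in the text, and for HTRA1. The difference between the lines was not tested for the members, which were chosen with these values known. For IGFBP7 it was -1.65 (log2, change in DU145 minus change in 769-P), with -0.82 and -1.04 in DU145 and 0.82 and 0.62 in 769-P. For INSR it was 0.97, with 0.97 and 0.29 in DU145 and -0.15 and -0.53 in 769-P, at control levels of 0.517 and 1.09 FPKM. For IGFBPL1 it was 0.91, with 0.84 and 0.20 in DU145 and -0.39 with both siRNAs in 769-P, where the gene was listed at 0 with both siRNAs and the control had 0.315 FPKM. The adjusted p of that difference from limma was 0.999. HTRA1, a secreted protease named after its values were seen, had the largest such difference among the pathway genes, 1.22 (standard error 0.60, adjusted p = 0.999 from limma), with 0.39 and 0.85 in DU145 and -1.05 and -0.16 in 769-P. The others were SOS1, PIK3R1 and GAB1, also named after their values were seen.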

How the results depend on the processing

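The 1.5-fold calls of the 7 members counted stayed as given with a pseudocount of 0.1, median-centred fold changes, quantile normalization, background subtraction, no filter and a mean of at least 5 FPKM, which leaves out IGF1R. Of the 3 not counted, a pseudocount of 0.1 put INSR (1.74 and 0.63) and IGFBP1 (-1.15 with both siRNAs) past 1.5-fold in DU145. Background subtraction put INSR past it there, but it lowers the DU145 control most, which by itself widens that change. IGFBP1 had 0.121 FPKM in that control, under the mean of 0.345 FPKM of the olfactory receptor genes, and a change of 0 after subtraction. The mean change of IGFBP2 in 769-P went from -0.85 to -2.59 with a pseudocount of 0.1. Leaving out 1 siRNA library gave 4 to 5 members past the threshold in DU145 and 3 to 5 in 769-P (5 without siRNA 2 in either line), since the rule then asks for 1 siRNA only. For the pathway genes it gave 9 to 16 in DU145 and 6 to 10 in 769-P. In DU145 1428 of the 11865 genes were then past the threshold upward and 880 downward with siRNA 1, and 1345 and 442 with siRNA 2. In 769-P the numbers were 1221 and 1167 with siRNA 1, and 730 and 993 with siRNA 2. The members' counts are not read against these, since the members were chosen with their changes known. SPOP left was 17.2% to 18.4% and 12.04% to 13.2%. The pathway count in DU145 was 3 with median centring and 2 with quantile normalization, against 6, and in 769-P 5 with a pseudocount of 0.1 (4 upward, 1 downward), against 3. Without the filter, limma passed 1 pathway gene for knockdown in DU145 and 1 for the difference between the lines, both ESM1. ESM1, named after its values were seen, was listed at 0 in every library but the DU145 control. That control had 0.408 FPKM of it, against a mean of 0.345 FPKM over its olfactory receptor genes. The siRNA libraries at 0 left it a standard error of 0.0017 for knockdown in DU145, so these passes are not read as a change. For the level in the lines 14 passed, against 22. Of all genes, 4.83%, 4.90% and 18.6% then passed for knockdown in DU145, the difference between the lines and the level in the lines. Leaving out a siRNA library gave 12 to 20 there and 0 to 0 for the knockdown contrasts, with the lone library assumed to vary like the other groups.

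The 2 lines share siRNA numbers in the labels. With the number as a replicate block, 0, 0 and 0 pathway genes passed for the knockdown contrasts and 26 for the level in the lines, against 22. Of all genes, 50.4% then passed for the level, against 42.1%, 8 for the difference between the lines, against 20, 18 for knockdown in DU145, against 16, and 13 in 769-P, against 12. Across 11865 genes, which are not independent, siRNA 2 minus siRNA 1 correlated at 0.27 between the lines. Without counts, the precision of a single FPKM value is unknown, and members under about 0.3 FPKM in the DU145 control or the 769-P siRNA 2 library cannot be told apart from the background of those libraries.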
